A study of Rattus norvegicus with 16 samples.

Results

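The genes described here were 10 transcription factors of the immediate early kind, Egr1, Egr2 and Egr3, Nr4a1, Nr4a2 and Nr4a3, and Klf2, Klf4, Klf6 and Klf10. They were found as the probe sets whose gene symbol in the platform annotation was exactly one of these names. This gave 20 probe sets for the 10 genes, of 31042 probe sets and 14217 named genes on the array. Egr1, Egr3, Nr4a1, Klf4 and Klf10 had 1 probe set each, Egr2 and Nr4a2 had 2, Nr4a3 and Klf6 had 3 and Klf2 had 5.

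The samples were left ventricles of 16 rats labelled female, of about 7 months, each hybridised to its own Affymetrix whole-genome rat array. The high (HCR) and low (LCR) capacity runners are lines selected out of N:NIH rats by how far they run on a treadmill at about 11 weeks of age, and generation 16 was used. Each line gave 4 rats that stayed sedentary and 4 that ran uphill in intervals for 8 weeks, on 5 days per week and 1.5 hours per session, with 8 minutes at 85 to 90% of maximal oxygen uptake followed by 2 minutes at 50 to 60%. All the groups shared the labelled sex, stock and age, though Xist on the array of HCR sedentary rat 5 stood apart from that sex, as given below. No rat of an unselected stock was measured, so a line difference has no outside reference. The hour of tissue collection and the time since the last run are not given in the sources used here.

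Immediate early genes are transcribed within minutes of a stimulus without need of new protein, and their RNA is short-lived. Egr1, Egr2 and Egr3 encode zinc finger factors that bind GC-rich sites and are induced by growth factors and stretch through serum response factor and MAP kinases. Nr4a1, Nr4a2 and Nr4a3 encode orphan nuclear receptors induced by cyclic AMP and calcium, with roles in muscle metabolism. Klf2 and Klf4 are zinc finger factors best known as flow-responsive genes of the endothelium, while Klf6 and Klf10 respond to injury and to transforming growth factor beta.

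RefSeq promoter windows on the GRCr8 assembly were held for 6 of the 10 genes, Egr1, Egr2, Nr4a1, Nr4a2, Klf4 and Klf6, and not for Egr3, Nr4a3, Klf2 and Klf10. Each window had 300 bases, of which 250 lay before the annotated start. Those of Egr2, Nr4a1 and Klf6 are printed up to the start, because they show the element types through which such genes are known to be induced. Egr2 lies at chr20:21054442-21054691 on the minus strand, Nr4a1 at chr7:134259888-134260137 on the plus strand, and Klf6 at chr17:69458479-69458728 on the minus strand. Capitals mark CArG boxes, which serum response factor binds, and the core TGACG of the cyclic AMP response element, which reads CGTCA on the opposite strand.
Egr2: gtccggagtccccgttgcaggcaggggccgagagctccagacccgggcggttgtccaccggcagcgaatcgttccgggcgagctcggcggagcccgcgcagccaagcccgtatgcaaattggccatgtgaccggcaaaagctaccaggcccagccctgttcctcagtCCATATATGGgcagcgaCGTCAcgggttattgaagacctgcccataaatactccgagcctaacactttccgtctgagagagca
Nr4a1: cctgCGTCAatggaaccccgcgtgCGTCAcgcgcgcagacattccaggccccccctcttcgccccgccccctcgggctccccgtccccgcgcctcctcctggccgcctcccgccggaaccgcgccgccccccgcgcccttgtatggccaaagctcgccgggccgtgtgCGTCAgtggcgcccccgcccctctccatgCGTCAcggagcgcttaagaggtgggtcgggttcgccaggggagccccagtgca
Klf6: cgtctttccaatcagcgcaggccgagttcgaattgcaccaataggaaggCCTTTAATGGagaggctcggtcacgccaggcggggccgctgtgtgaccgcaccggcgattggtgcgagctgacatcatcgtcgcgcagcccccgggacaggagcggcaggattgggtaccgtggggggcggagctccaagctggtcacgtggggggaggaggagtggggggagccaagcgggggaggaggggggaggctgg

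Over the full windows, searched on both strands, 3 of the 6 genes held a CArG box, against 1.64% of the 33469 promoters in the table. Egr1 had 2 of them, starting 105 and 83 bases before the start, Egr2 had 1 at 83 bases and Klf6 had 1 at 201 bases. The TGACG core was in 4 of the 6 windows, with 4 matches in Nr4a1, 2 in Egr1 and 1 each in Egr2 and Nr4a2, against 21.2% of all promoters. None of the 6 held the whole element TGACGTCA (1.83% of all promoters), the NBRE AAAGGTCA that Nr4a receptors bind (1.43%) or the ETS core CCGGAAGT (3.81%). Nr4a1 alone held an Egr site, GCGNGGGCG (4.98% of all promoters), which overlaps one of its 5 matches to the KLF site CCNCNCCC. The KLF site was in 3 of the 6 windows, those of Nr4a1, Klf6 and Egr2 (46.3% of all promoters), and the TATA box TATAAA was in the Klf4 window alone (14.2%). These are matches of letters and not measured binding.

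Array medians lay between 5.85 and 5.95 on the log2 scale and arrays correlated at r between 0.984 and 0.995. The interquartile range of an array's values ran from 1.97 to 2.27, with the 3 narrowest arrays all from HCR sedentary rats. One HCR sedentary array, that of rat 5, stood apart from its label of female, because Xist, the RNA of the silenced X chromosome, read 3.76 to 4.94 on its 4 probe sets and 7.56 to 10.3 in the other 15 rats. Many results that include this array are also given without it, but not all. The interactions, the training differences over both lines and the correlations with array spread and marker scores are among those given only with it. Of 9 cardiomyocyte markers 8 were measured, at mean levels from 12.15 to 14.3, as the ventricle label implies. With 4 arrays in a group, array number limits how precisely any difference below is known.

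No member probe set passed the test in any of the 7 comparisons, by limma with Benjamini-Hochberg adjustment over all 31042 probe sets at an adjusted p of 0.05. Over all probe sets 4.99% were called in the sedentary line difference (1549 probe sets, but 112 without HCR sedentary rat 5, 103 without HCR sedentary rat 4 and 35 without LCR sedentary rat 6), 0.0966% in the trained line difference, 0% for training in HCR, 0.00322% for training in LCR, 0% for the interaction of line and training, 3.84% for line over both training states and 0.00644% for training over both lines. At an unadjusted p under 0.05, the members counted 2, 0, 5, 2, 0, 1 and 6 of 20 in the same order, against 27.7%, 7.33%, 13.9%, 5.57%, 9.88%, 24.1% and 9.24% of all probe sets. The 20 probe sets share arrays and, in part, genes, so these shares are descriptions.

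Several members varied widely between rats of the same group. Egr1 spanned 5.57-fold over the 16 arrays, Nr4a1 3.61-fold, Klf10 3.01-fold and the main probe set of Nr4a2 2.51-fold. The residual standard deviation of Egr1 within groups was 0.65, larger than that of 99.58% of probe sets. Those of Nr4a1, Klf10 and Nr4a2, at 0.54, 0.47 and 0.38, were larger than 99.34%, 98.99% and 98.33%. The median over all probe sets was 0.11. Egr2 at 0.11 and Nr4a3 at 0.11, on the probe sets of highest mean, lay near the middle of the array.

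**Figure D1:**
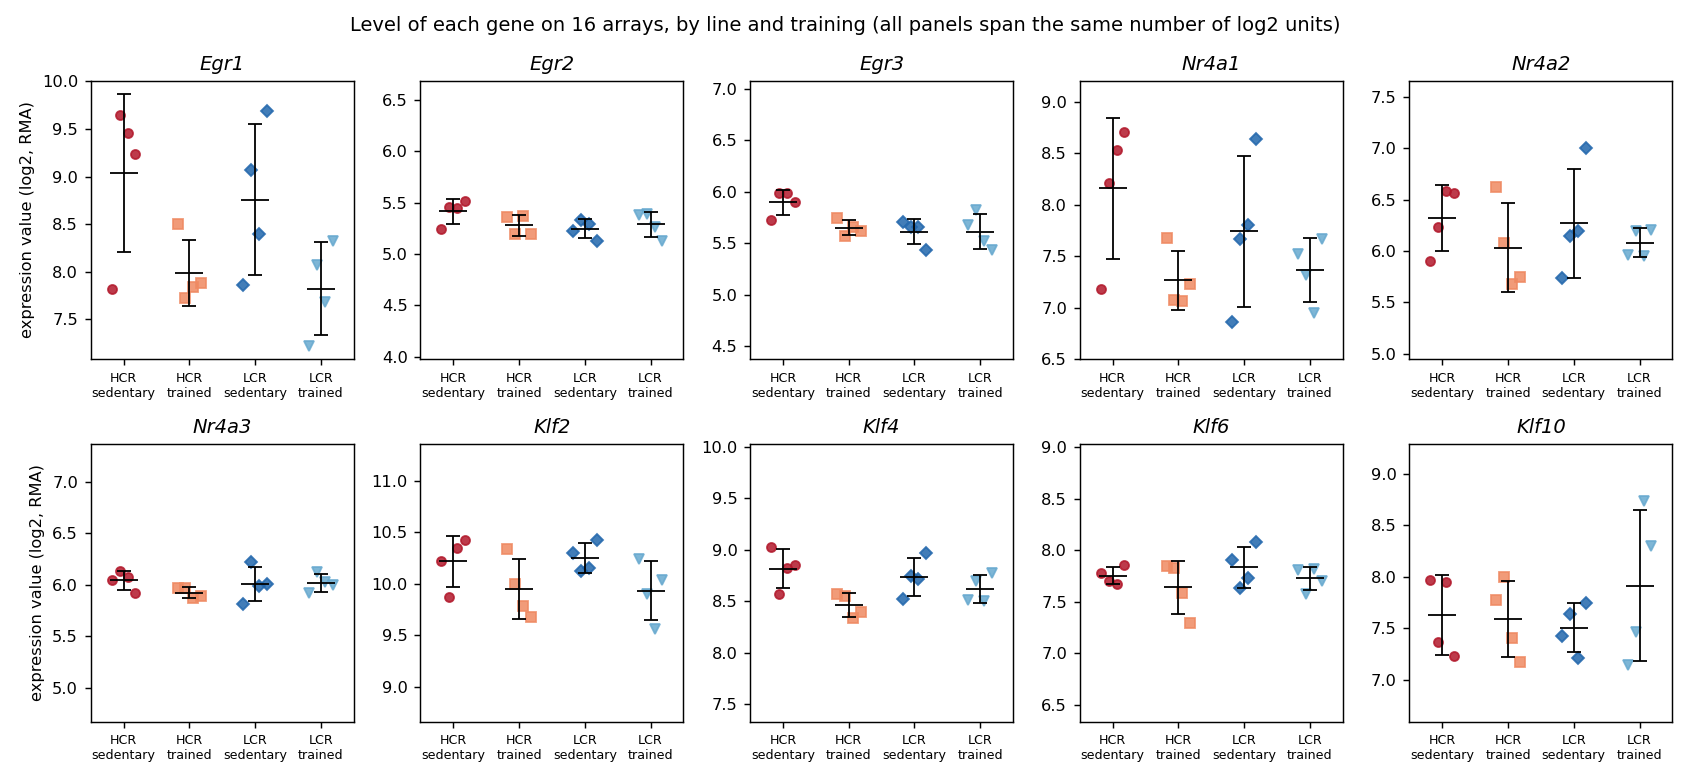
Log2 expression values (vertical axis) of the 10 genes on 16 arrays, by group, 1 probe set per gene, with the black line at the group mean and bars of 1 SD (n = 4). Egr1 and Nr4a1 are widely scattered in both sedentary groups, each of which holds 1 low rat, and lie lower and closer together in the trained groups.

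Egr1, the founding member of its family, read 7.82, 9.65, 9.46 and 9.23 in HCR sedentary rats 3, 4, 5 and 6. It read 8.50, 7.72, 7.84 and 7.88 in HCR trained rats 3, 4, 5 and 6. LCR sedentary rats 2, 3, 5 and 6 had 7.87, 9.07, 8.40 and 9.69, and LCR trained rats 1, 2, 3 and 4 had 7.22, 8.07, 7.68 and 8.32. In each line 3 of the 4 sedentary rats were above every trained rat and 1 sedentary rat, HCR rat 3 or LCR rat 2, lay among them, so the groups overlapped. Group means ran from 9.04 ± 0.83 (SD, n = 4) in HCR sedentary and 8.76 ± 0.79 in LCR sedentary to 7.99 ± 0.35 in HCR trained and 7.83 ± 0.48 in LCR trained rats. Neighbours in that order did not differ beyond these spreads.

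The trained mean of Egr1 was lower than the sedentary mean by 1.06 ± 0.39 log2 units in HCR, where the values after ± are now standard errors of the fitted difference (adjusted p = 0.278, limma; 95% confidence interval -1.89 to -0.22). In LCR the difference was -0.93 ± 0.39 (adjusted p = 0.834, limma; -1.76 to -0.10). Averaged over both lines it was -0.99 ± 0.28, a level in trained rats about 0.502 of the sedentary level, with an unadjusted limma p of 0.00245 and an adjusted p of 0.32. It did not pass. The interaction was -0.12 ± 0.56 (limma adjusted p = 0.951), with an interval of -1.30 to 1.05, so unequal changes in the lines were neither shown nor bounded closely. Without the array of HCR sedentary rat 5 the HCR difference was -0.92 (limma adjusted p = 0.543), and without LCR sedentary rat 6 the LCR difference was -0.62. Because these are pieces of ventricle, fewer cells carrying a transcript and less transcript per cell cannot be told apart, here and for the other genes.

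Egr2, best known from Schwann cells and lymphocytes, had residual standard deviations larger than those of 48.32% and 79.92% of probe sets. Its probe set of higher mean, 1398266_a_at, lay from 5.13 to 5.51 over the 16 arrays and the other, 1387306_a_at, from 4.71 to 5.28. Their means, 5.31 and 5.02, lay below the median of the means of all probe sets, 5.895. The probe sets correlated with each other at only r = 0.356 (rho = 0.359, permutation p = 0.176, adjusted 0.396 over 18 pairs of probe sets of one gene). The first read higher in HCR than in LCR sedentary rats by 0.17 ± 0.08 (limma adjusted p = 0.163; without HCR sedentary rat 5, 0.16 and 0.3).

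Egr3, a close relative that shares binding sites with Egr1, came nearest to a call, in the line difference of sedentary rats. Its mean, 5.69, lay below the median of the means of all probe sets, 5.895. With only probe sets at or above that median, which leaves Egr3 out, the lowest limma adjusted p of the members there was 0.299. Egr3 read 5.73, 5.99, 5.98 and 5.90 in HCR sedentary rats and 5.71, 5.66, 5.65 and 5.43 in LCR sedentary rats. The groups did not overlap, as was so for 18.3% of all probe sets in this comparison and for no other member. The difference was 0.29 ± 0.09 (limma adjusted p = 0.0614; without HCR sedentary rat 5, 0.26 and adjusted p = 0.159). Egr3 passed without HCR sedentary rat 3, LCR trained rat 2 or LCR trained rat 4 (limma adjusted p of 0.0382, 0.0422 and 0.0489), and with array weights (0.0229). In these settings 1891, 1994, 1936 and 4183 of all 31042 probe sets were called, against 1549 in the main fit. In trained rats the line difference was 0.04 ± 0.09 (limma adjusted p = 0.976), with HCR values of 5.74, 5.57, 5.66 and 5.62 and LCR values of 5.67, 5.82, 5.52 and 5.44. The interaction was -0.25 ± 0.12 (limma adjusted p = 0.516).

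The level of Egr3 moved with the spread of the array itself. Its r with the interquartile range of the array was -0.897 over 16 arrays (rho = -0.847, permutation p = 1e-05, the smallest that 100000 resamples can give, adjusted 0.0013 over 130 pairs). Leaving out the 2 arrays farthest from the median range kept r at -0.815. Egr2 followed at r = -0.790 (rho = -0.782, permutation p = 0.00035, adjusted 0.0152), and at -0.715 without the 2 farthest. With the group means taken out the values were -0.795 and -0.678 (adjusted permutation p of 0.196 and 0.535). With the interquartile range as a covariate in the limma fit, the sedentary line difference of Egr3 was 0.04, with an adjusted p of 0.94. That range was 1.97 to 2.10 on HCR sedentary and 2.14 to 2.21 on LCR sedentary arrays. The lines did not overlap in it, so this fit cannot tell line from array spread in sedentary rats. The r with the interquartile range was -0.296 for Egr1, -0.356 for Nr4a1 and -0.036 for Nr4a2, with adjusted permutation p of 0.997 each.

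**Figure D2:**
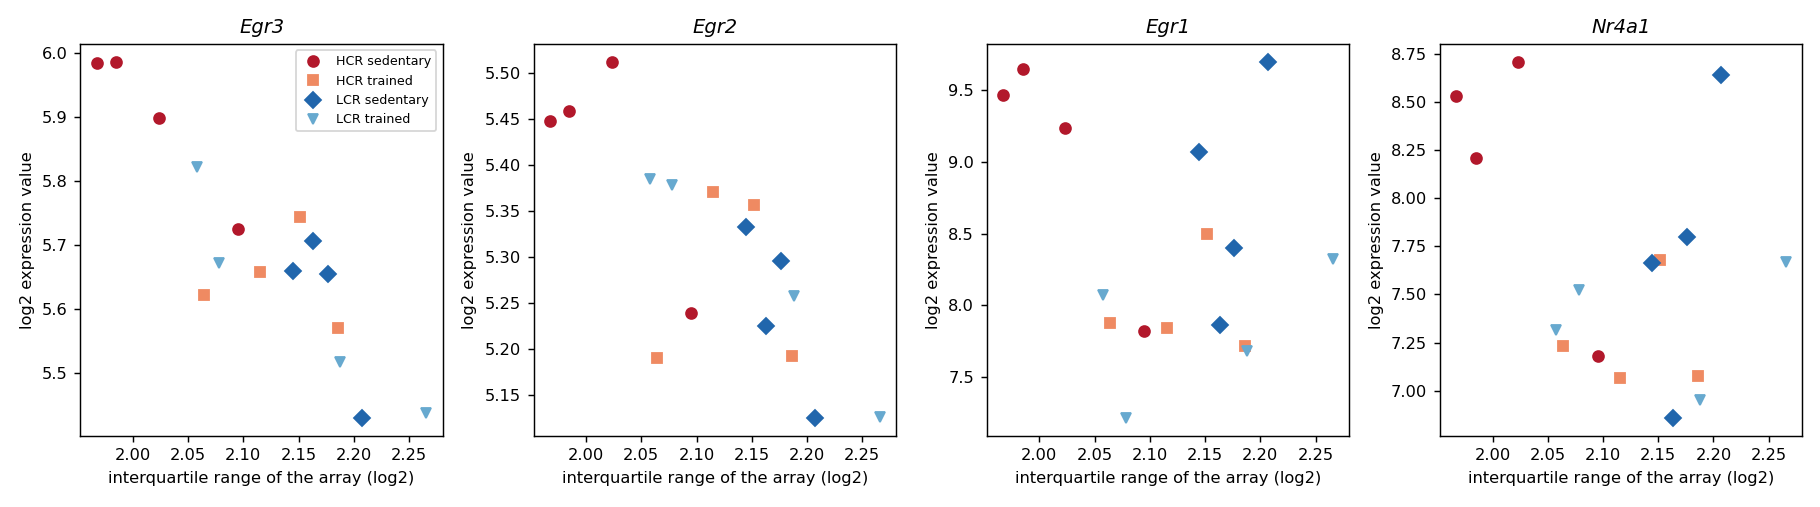
Log2 expression value (vertical axis) against the interquartile range of the array's log2 values (horizontal axis), 1 point per array with groups by colour and symbol. Egr3 and Egr2 decline as the range widens (r = -0.897 and -0.790), while Egr1 and Nr4a1 scatter (r = -0.296 and -0.356).

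Egr2 and Egr3 also moved with marker scores, each score being the mean over a list of each gene minus its own mean over the arrays. Egr3 followed the score of neuron and Schwann cell markers at r = 0.807 (rho = 0.753, permutation p = 0.00013, adjusted 0.00845; 0.752 without the 2 farthest arrays). Of the 7 listed markers 5 were measured, S100b, Sox10, Mbp, Uchl1 and Prph, at mean levels from 5.02 to 6.32. Their score ran from 0.07 to 0.14 in HCR sedentary, -0.12 to 0.10 in HCR trained, -0.16 to -0.02 in LCR sedentary and -0.10 to 0.05 in LCR trained rats. Egr2 ran against the score of all 9 macrophage markers at r = -0.711 (rho = -0.674, permutation p = 0.00151, adjusted 0.0491; -0.539 without the 2 farthest arrays). That score ran from -0.30 to 0.17, -0.01 to 0.08, -0.21 to 0.19 and -0.13 to 0.49 in the same order of groups. Both calls were lost with quantile normalization (adjusted permutation p of 0.297 for Egr3 and 0.396 for Egr2) and with group means taken out (0.196 for both). The part of these cells in the levels of Egr2 and Egr3 was not tested.

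Nr4a1, also called Nur77, had the pattern of Egr1 in HCR and part of it in LCR. It read 7.18, 8.21, 8.53 and 8.71 in HCR sedentary rats 3, 4, 5 and 6, and 7.68, 7.08, 7.06 and 7.23 in HCR trained rats 3, 4, 5 and 6. LCR sedentary rats 2, 3, 5 and 6 had 6.86, 7.66, 7.80 and 8.64, and LCR trained rats 1, 2, 3 and 4 had 7.52, 7.31, 6.95 and 7.67. The low sedentary rats were again HCR rat 3 and LCR rat 2, and the high trained HCR rat was again rat 3. In LCR only sedentary rats 5 and 6 lay above every trained rat. LCR trained rat 1, the lowest for Egr1, lay above trained rats 2 and 3 for Nr4a1. The training difference was -0.89 ± 0.33 in HCR (limma adjusted p = 0.275; without HCR sedentary rat 5, -0.77) and -0.38 ± 0.33 in LCR (limma adjusted p = 0.986). The LCR value leaned on single rats, at -0.08 without LCR sedentary rat 6 and -0.67 without LCR sedentary rat 2. The interaction of Nr4a1 was -0.52 ± 0.47 (limma adjusted p = 0.708).

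Nr4a2, also called Nurr1, was read by 2 probe sets that correlated at r = 0.743 (rho = 0.771, permutation p = 0.00096, adjusted 0.00864 over 18 pairs). On 1369007_at, that of higher mean, HCR sedentary rats had 5.90, 6.24, 6.58 and 6.56 and HCR trained rats had 6.62, 6.08, 5.68 and 5.74. LCR sedentary rats had 5.74, 6.14, 6.19 and 7.00 and LCR trained rats had 5.96, 6.20, 5.95 and 6.20. The highest value was that of LCR sedentary rat 6, as for Egr1, and all the groups overlapped. Its training difference was -0.29 ± 0.24 in HCR and -0.19 ± 0.24 in LCR (limma adjusted p of 0.581 and 0.992). For Nr4a2 on 1369007_at the HCR value was -0.20 without HCR sedentary rat 5, -0.49 without HCR trained rat 3 and -0.17 without HCR trained rat 5. The LCR value was 0.05 without LCR sedentary rat 6, so its sign turned, and -0.37 without LCR sedentary rat 2. The second probe set, 1387410_at, lay from 5.22 to 5.69 and differed by -0.17 ± 0.09 and -0.07 ± 0.09 (limma adjusted p of 0.39 and 0.992).

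Nr4a3, also called Nor1, had 3 probe sets that did not move together, with r from -0.097 to 0.250. The probe set of highest mean, 1393389_at, ran only from 5.81 to 6.22, while 1369217_at ran from 5.26 to 6.09 and 1369067_at from 4.65 to 5.22. The training differences in HCR were -0.12, -0.19 and -0.17 in that order, and those in LCR 0.01, 0.09 and 0.05. The lowest limma adjusted p among these 6 values was 0.465, and without HCR sedentary rat 5 the HCR values of Nr4a3 were -0.11, -0.14 and -0.27. The widest of them, 1369217_at, read 5.31, 5.82, 5.91 and 6.09 in HCR sedentary rats, with rat 3 lowest as for Egr1 and Nr4a1.

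Klf2, a factor that endothelial cells raise under laminar flow, had 5 probe sets, of which 1376569_at and 1386041_a_at moved as one (r = 0.924, rho = 0.835, permutation p = 1e-05, adjusted 0.00018). On 1376569_at HCR sedentary rats had 10.22, 9.87, 10.35 and 10.42 and HCR trained rats had 10.34, 10.00, 9.78 and 9.68. LCR sedentary rats had 10.30, 10.12, 10.15 and 10.43 and LCR trained rats had 10.24, 9.90, 9.56 and 10.04. HCR trained rats 3 and 4, at 10.34 and 10.00, and LCR trained rat 1, at 10.24, lay within the range of their sedentary groups. The groups therefore overlapped in both lines. The training difference was -0.27 ± 0.16 in HCR and -0.32 ± 0.16 in LCR (limma adjusted p of 0.439 and 0.898). On 1386041_a_at it was -0.32 ± 0.20 and -0.42 ± 0.20 (0.467 and 0.888). Without HCR sedentary rat 5 the HCR values of these Klf2 probe sets were -0.22 and -0.27.

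The other Klf2 probe sets gave a different picture. The third, 1375248_at, ran from 7.07 to 7.58, with an r of 0.614 with the first (adjusted permutation p of 0.054), and its training differences were -0.07 and 0.01. The fourth, 1394068_x_at, ran from 6.69 to 6.99, and its r with the first was 0.136. Its HCR groups did not overlap, at 6.94, 6.99, 6.99 and 6.85 in sedentary and 6.76, 6.82, 6.82 and 6.83 in trained rats, with a difference of -0.13 ± 0.06 (limma adjusted p = 0.333). The fifth, 1386040_at, ran from 6.01 to 6.51, with an r of 0.117 with the first. Which transcripts each probe set reads was not examined.

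Klf4, which acts beside Klf2 in endothelium and is also known from stem cells, gave the lowest p of the members for training in HCR. HCR sedentary rats had 9.02, 8.57, 8.82 and 8.85 and HCR trained rats had 8.56, 8.55, 8.33 and 8.40. The groups did not overlap, which held for 2 of 20 member probe sets and 8% of all. In LCR training no member's groups were apart (2.82% of all), nor in the line difference of trained rats (3.14%). The difference was -0.35 ± 0.10 (limma adjusted p = 0.221; 95% confidence interval -0.57 to -0.13), and it was -0.35 without HCR sedentary rat 5. LCR sedentary rats had 8.52, 8.75, 8.72 and 8.97 and LCR trained rats had 8.51, 8.70, 8.50 and 8.77, a difference of -0.12 ± 0.10 (limma adjusted p = 0.987). For Klf4 this LCR value was -0.04 without LCR sedentary rat 6, -0.19 without LCR sedentary rat 2 and -0.08 without LCR trained rat 3. The interaction was -0.24 ± 0.15 (limma adjusted p = 0.586).

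Klf6 is a factor induced early after tissue injury. Its 3 probe sets ran from 7.29 to 8.08 (1387060_at), 7.33 to 7.75 (1388986_at) and 4.60 to 5.09 (1395557_at), with residual standard deviations larger than those of 87.1%, 78.03% and 78.08% of probe sets. The training differences were -0.11, -0.05 and -0.15 in HCR and -0.11, -0.11 and 0.02 in LCR, with limma adjusted p of at least 0.489. Without HCR sedentary rat 5 the HCR values of Klf6 were -0.14, -0.10 and -0.19, and that of 1387060_at was 0.0017 without HCR trained rat 6 and -0.18 without HCR trained rat 3. The lowest value of the first probe set was that of HCR trained rat 6 and the highest that of LCR sedentary rat 6.

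Klf10, a target of transforming growth factor beta, went its own way. HCR sedentary rats had 7.97, 7.36, 7.95 and 7.22, and HCR trained rats had 7.77, 8.00, 7.41 and 7.17. LCR sedentary rats had 7.42, 7.64, 7.21 and 7.74, and LCR trained rats had 7.15, 7.46, 8.74 and 8.30. The 2 highest of the 16 values were in LCR trained rats 3 and 4, beside the lowest in LCR trained rat 1. The training difference in LCR was 0.41 ± 0.29 (limma adjusted p = 0.966), and it was 0.13 without LCR trained rat 3. In HCR it was -0.04 ± 0.29 (limma adjusted p = 0.962), and its sign turned without HCR sedentary rat 3 (0.08), HCR sedentary rat 5 (0.07), HCR trained rat 5 (0.02) or HCR trained rat 6 (0.10).

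**Figure D3:**
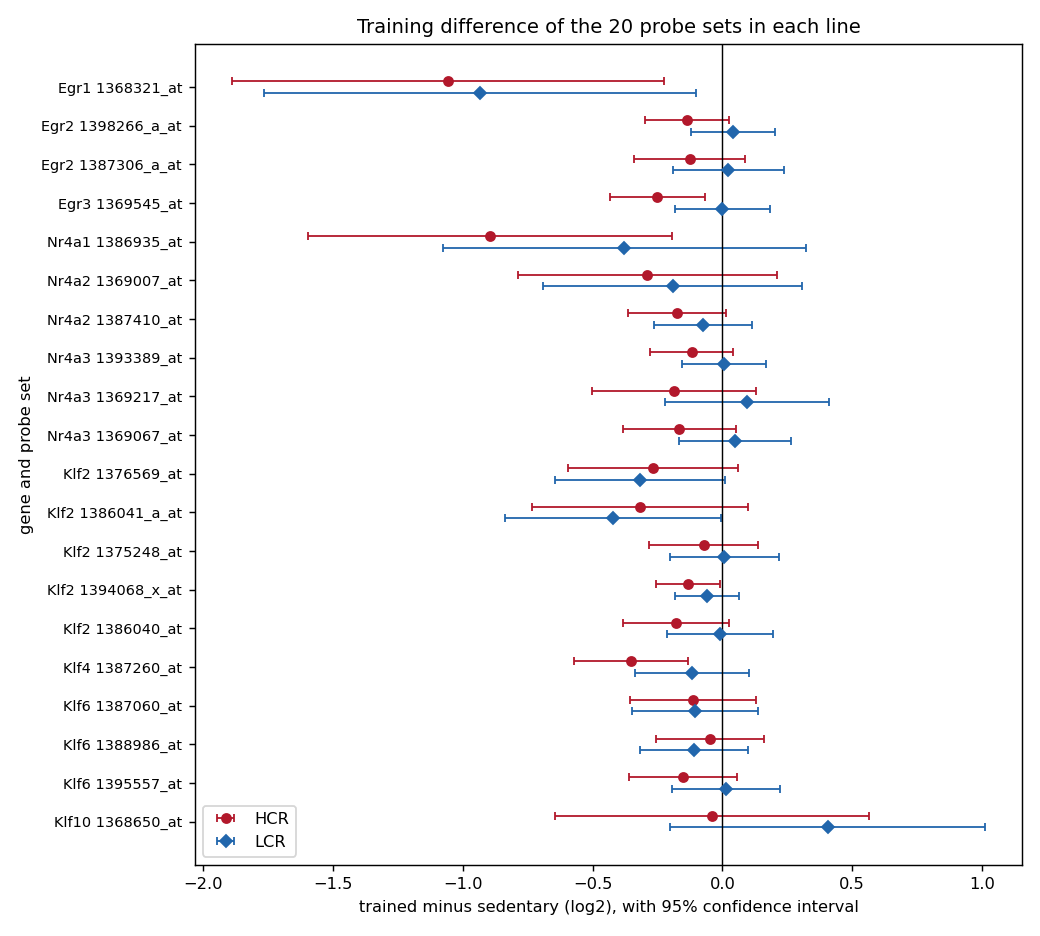
Training difference, trained minus sedentary on the log2 scale (horizontal axis), of the 20 member probe sets in HCR (red circles) and LCR (blue diamonds), with 95% confidence intervals from the limma fit. All the HCR points lie left of 0, Egr1 farthest at -1.06, while 8 of the LCR points lie right of it, Klf10 farthest at 0.41.

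By direction alone, all 20 member probe sets had a lower mean in trained than in sedentary HCR rats, where 54.4% of all probe sets did. The median difference of the members was -0.17, against -0.01 over all. This count of 20 stood with arrays centred on their medians and with quantile normalization. It was 19 with array weights, 19 without HCR sedentary rat 5, 19 without HCR trained rat 5, 18 without HCR sedentary rat 3 and 16 without HCR trained rat 6. Centring turned the share over all probe sets to 41.8%. In LCR 12 of 20 were lower (47.9% of all), with a median of -0.03, and over both lines 19 of 20 (53.7%). The interaction was below 0 for 17 of 20 (54.4%). These probe sets were not independent, since they shared the arrays and 5 of the genes had more than 1.

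Markers of atrial muscle and of macrophages had other means in trained than in sedentary rats as well, none of them called. All 4 listed atrial genes, Myl7, Myl4, Sln and Nppa, were measured, at mean levels from 5.951 to 11.53. Of these 3 were lower with training in HCR (median -0.32) and 4 in LCR (median -0.41). Their score ran from -0.24 to 0.88 in HCR sedentary, -0.59 to 0.26 in HCR trained, -0.20 to 0.35 in LCR sedentary and -0.81 to 0.33 in LCR trained rats. It correlated with Egr1 at r = 0.567 (rho = 0.603, permutation p = 0.0219, adjusted 0.285; 0.388 without the 2 farthest arrays) and with Nr4a1 at r = 0.486 (rho = 0.456, permutation p = 0.0559, adjusted 0.559). Of the 9 macrophage markers 8 were higher with training in HCR and 9 in LCR, with a median of 0.15 in both. The macrophage score had an r of -0.447 with Egr1 and -0.511 with Nr4a1 (adjusted permutation p of 0.661 and 0.45). The part of these cells in the training differences of the members was not tested.

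The line difference in sedentary rats was above 0 for 15 of 20 member probe sets and below 0 for 5, against 44.4% of all below 0. The count above 0 was 11 with centred arrays, with 9 below 0 against 59.2% of all, and 18 with quantile normalization. In trained rats the difference was above 0 for 5 of 20 and below 0 for 15, against 48.8% of all below 0. Over both training states it was above 0 for 10 of 20 and below 0 for 10, against 44.3% of all below 0. The trained count above 0 was 1 without HCR trained rat 3, 10 without HCR trained rat 5 and 11 without HCR trained rat 6, and 8 with array weights. The count above 0 over both states was 15 with quantile normalization and 14 with the interquartile range as covariate. The largest of the sedentary differences were those of Nr4a1 at 0.42 ± 0.33, Egr3 and Egr1 at 0.28 ± 0.39 (limma adjusted p of 0.414, 0.0614 and 0.656). The Nr4a1 value was 0.12 without LCR sedentary rat 2, 0.29 without HCR sedentary rat 5 and 0.74 without HCR sedentary rat 3. That of Egr1 was -0.01 without LCR sedentary rat 2, 0.08 without HCR sedentary rat 4 and 0.14 without HCR sedentary rat 5, but 0.60 without LCR sedentary rat 6 and 0.69 without HCR sedentary rat 3.

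From array to array, 4 of the 45 pairs of genes passed a permutation test adjusted over the pairs, with 1 probe set per gene. Egr1 and Nr4a1 correlated at r = 0.870 (rho = 0.838, permutation p = 5e-05, adjusted 0.00105). Nr4a1 and Nr4a2 followed at r = 0.844 (rho = 0.877, permutation p = 7e-05, adjusted 0.00105) and Egr1 and Nr4a2 at r = 0.763 (rho = 0.782, permutation p = 0.00056, adjusted 0.0063). These pairs form a trio of 2 families. The fourth pair was Egr2 and Egr3, at r = 0.866 (rho = 0.838, permutation p = 3e-05, adjusted 0.00105). Egr1 itself correlated with Egr2 at 0.305 and with Egr3 at 0.370, neither of which passed. Without LCR sedentary rat 6 these values were 0.590 and 0.679. Over the 8 HCR arrays Egr1 correlated at 0.866 with Egr2 and 0.966 with Egr3, and over the 8 LCR arrays at -0.482 and -0.411, a difference that was not tested.

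Leaving out the 2 arrays farthest from the median of the first gene kept r at 0.83, 0.765 and 0.748 within the trio and at 0.821 for Egr2 and Egr3. Without HCR sedentary rat 5 the values were 0.849, 0.83, 0.737 and 0.854. Over the 8 sedentary arrays Egr1 and Nr4a1 correlated at 0.891 and over the 8 trained arrays at 0.458, a difference that was not tested. Taking out the group means, so that only differences between rats of one group count, left 0.822, 0.860 and 0.776 in the trio and 0.826 for Egr2 and Egr3. The adjusted permutation p was then 0.0604 for Egr1 and Nr4a1, and 0.0216, 0.0264 and 0.0264 for the others. With the interquartile range of the arrays taken out as well, the trio stood at 0.822, 0.882 and 0.791, with adjusted permutation p of 0.0631, 0.0279 and 0.0571. Egr2 and Egr3 then stood at 0.643 (adjusted permutation p = 0.279).

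**Figure D4:**
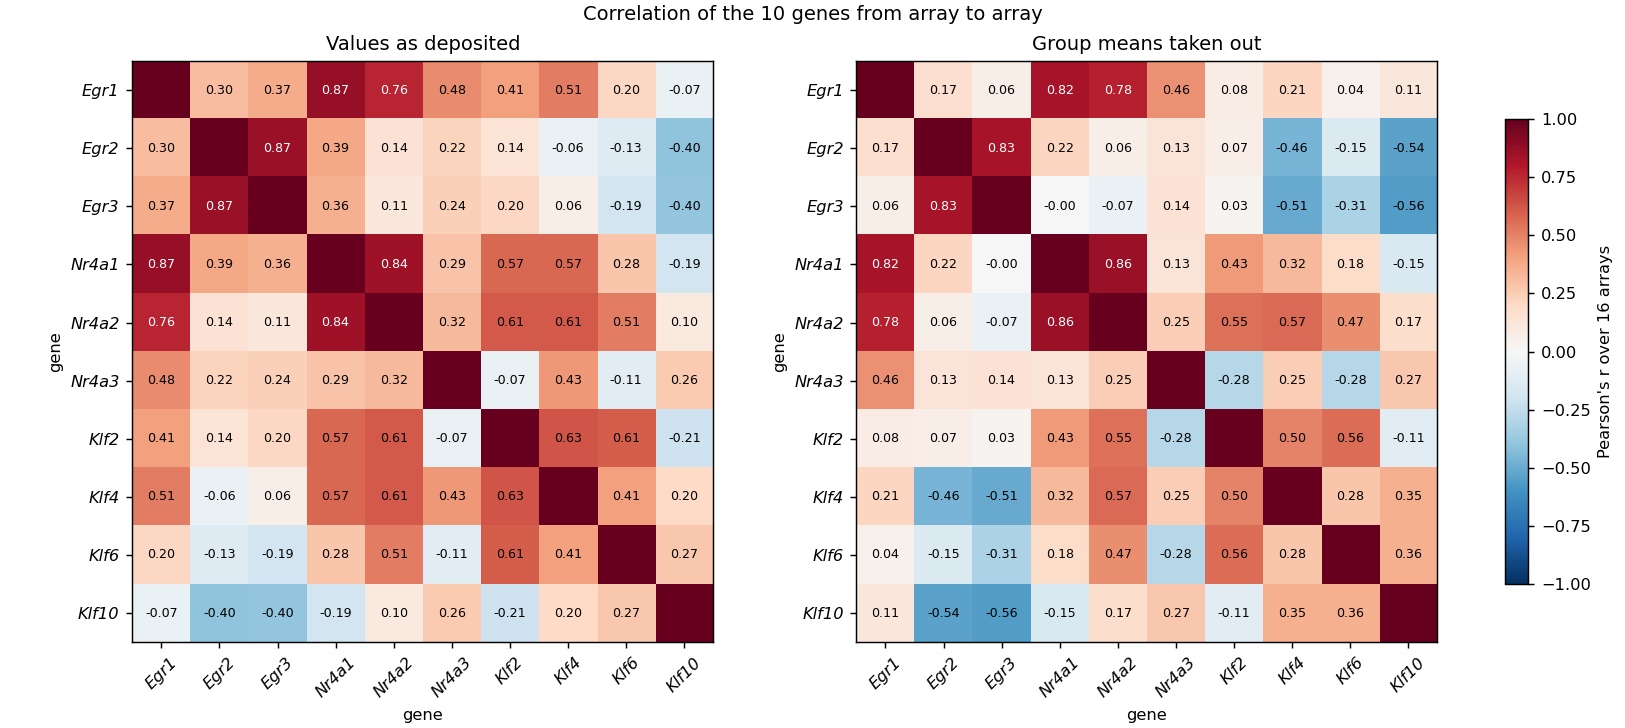
Pearson's r over 16 arrays for each pair of the 10 genes, with the values as deposited (left) and with group means taken out (right), on a colour scale from -1 to 1. Egr1, Nr4a1 and Nr4a2 form one block of high values and Egr2 with Egr3 another in both panels.

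No pair with a Klf gene passed with the values as deposited. Klf2 and Klf4 correlated at r = 0.627 (rho = 0.635), Klf2 and Klf6 at 0.608 (rho = 0.609), Nr4a2 and Klf2 at 0.614 (rho = 0.565) and Nr4a2 and Klf4 at 0.612 (rho = 0.621), each with an adjusted permutation p of 0.0658 that does not pass. With quantile normalization of the arrays, 9 pairs passed, the added ones being Klf2 with Klf4, Klf6, Nr4a1 and Nr4a2, and Nr4a1 with Klf4. Klf10 had no pair that passed, and its r with Egr2 and Egr3 was -0.40 with both. The endothelial marker score, of 10 measured genes of 12, correlated with Klf2 at 0.098 and with Klf4 at 0.016 (rho of 0.056 and 0.147, adjusted permutation p of 0.997 for both).

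Other immediate early genes were among those most like the trio. Under a search of 12145 probe sets of 9480 genes for the highest r, Egr1 was most like Fos (0.874), Dusp1 (0.824) and Junb (0.815). Nr4a1 was most like Mindy4 (0.819), Dusp1 (0.814) and Junb (0.813), and Nr4a2 most like Fos (0.870), Dusp1 (0.793) and Abhd8 (0.783). Fos and Junb are subunits of the AP-1 factor and Dusp1 is a phosphatase that switches off MAP kinases. These values are descriptions over 16 arrays, picked as the highest of many.

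Fos, on its probe set of highest mean, shared the low and high rats of Egr1. HCR sedentary rats 3, 4, 5 and 6 had 6.78, 8.99, 8.59 and 8.39, and HCR trained rats 3, 4, 5 and 6 had 8.28, 6.89, 5.94 and 6.05. LCR sedentary rats 2, 3, 5 and 6 had 7.01, 8.15, 8.64 and 9.86, and LCR trained rats 1, 2, 3 and 4 had 6.31, 7.69, 7.29 and 7.69. HCR sedentary rat 3 and LCR sedentary rat 2 were the lowest of their groups, and HCR trained rat 3 the highest of its own. The training difference of Fos was -1.40 ± 0.60 in HCR and -1.17 ± 0.60 in LCR (limma adjusted p of 0.327 and 0.904). Without HCR sedentary rat 5 the HCR value of Fos was -1.26, and without LCR sedentary rat 6 the LCR value was -0.69.

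**Figure D5:**
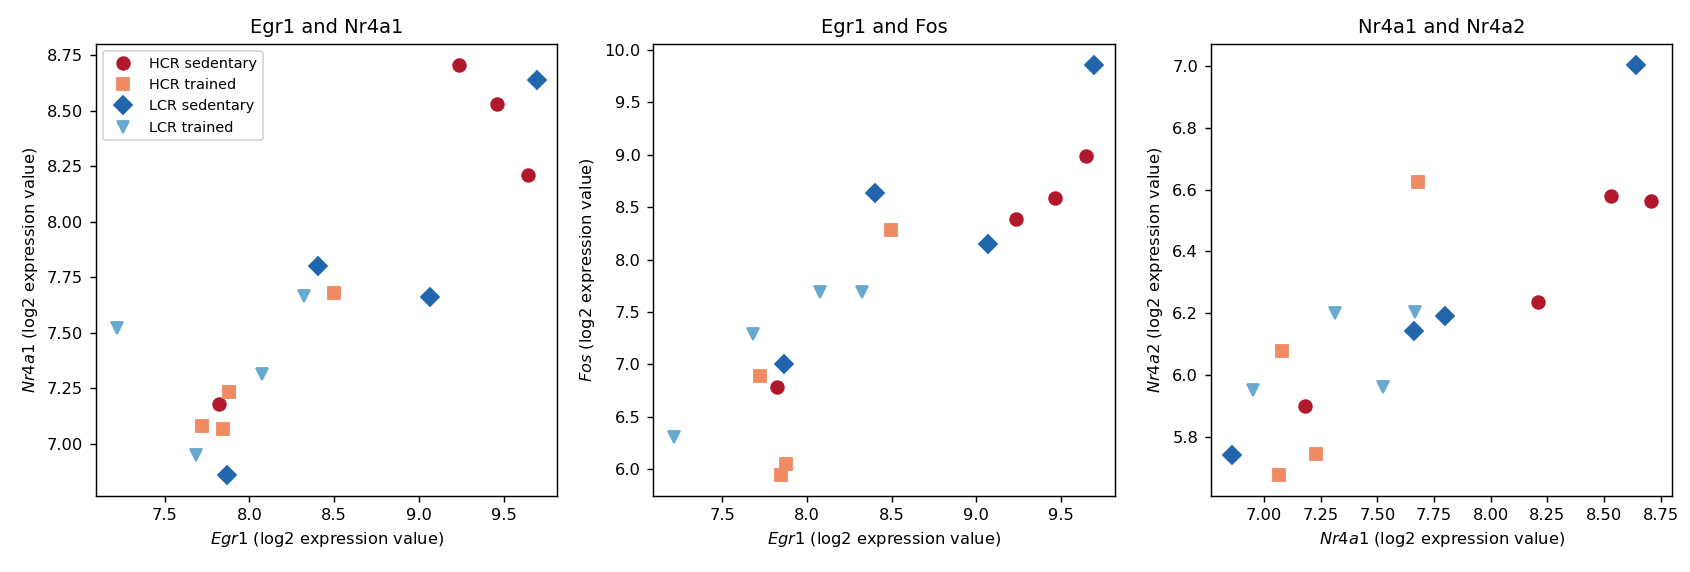
Log2 expression values of Egr1 against Nr4a1, Egr1 against Fos, and Nr4a1 against Nr4a2, 1 point per array with groups by colour and symbol. The points rise along a diagonal in all the panels (r = 0.870, 0.874 and 0.844), with 1 low array in each sedentary group and 1 high array, rat 3, among the HCR trained rats.

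For the listed genes of the pathway, 83 genes were paired with each member, 830 pairs in all, and 20 pairs passed an adjusted permutation test. Within the trio these were Egr1 with Fos (adjusted 0.0083), Dusp1 and Junb (0.0212 each), Nr4a2 with Fos (0.0083) and Dusp1 (0.0212), and Nr4a1 with Dusp1, Junb, Fos, Fosb and Ier2 (r = 0.814, 0.813, 0.799, 0.785 and 0.743). Of 8 AP-1 genes 3 had r of at least 0.6 with Egr1 and 3 with Nr4a1, against 1.36% and 0.95% of 14207 other genes. For Nr4a2 it was 2 of 8, against 0.45%. Of 27 other immediate early genes 4 reached that r with each of the trio. It was reached by 3 of the 27 for Klf4, against 0.415% of other genes, by 1 for Klf6 (0.739%), and by none for Nr4a3 (0.493%), Klf2 (0.479%) and Klf10 (1.19%). With group means taken out r was 0.869 for Egr1 and Fos and 0.899 for Nr4a2 and Fos, but none of the 830 pairs passed (adjusted permutation p of 0.107 for both).

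The Klf genes and the remaining members had other companions. Klf2, Klf4 and Klf6 each had Jun, a further AP-1 subunit, among their 3 most similar genes, at r = 0.784, 0.748 and 0.768, the first and second on the Jun probe set 1369788_s_at and the last on 1389528_s_at (adjusted permutation p = 0.0236 for Klf6 and Jun among the listed pairs). The listed pairs read Jun on 1389528_s_at, its probe set of highest mean. There 0 of 8 AP-1 genes, Jun included, had r of at least 0.6 with Klf2 or with Klf4 (0.479% and 0.415% of other genes). Klf6 was most like Gadd45g (0.796, adjusted permutation p = 0.0212 among the listed pairs; 0.528 without the 2 farthest arrays), a stress gene, and then Nherf2 (0.772). Klf6 ran against Fosl1, another AP-1 subunit, at r = -0.769 (rho = -0.671, adjusted permutation p = 0.0228; -0.574 without the 2 farthest arrays). Klf2 was also most like Nup107 (0.773) and Ywhae (0.752), and Klf4 like Cep57l1 (0.796) and Tiparp (0.772). Klf10 was most like Mllt10 (0.808), Tssc4 (0.800) and Rnf20 (0.799), and ran against Dusp5, a MAP kinase phosphatase (r = -0.730, rho = -0.650, adjusted permutation p = 0.0467).

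Egr3 was most like Itpr2 (0.939), Elf1 (0.920) and Rsph6a (0.917), and Egr2 most like Dlk2 (0.901), Lrrc15 (0.887) and Aplnr (0.879). For these members an r of at least 0.6 was common, at 13.1% of 14207 genes for Egr3 and 7.8% for Egr2. Among the listed genes Egr3 followed Trib1 (0.807) and ran against Map2k1, Mef2c, Rps6ka3 and Pdgfa (-0.771, -0.754, -0.735 and -0.743), and Egr2 followed Trib1 (0.746). Nr4a3 was most like Hba-a3 (0.767), Pelp1 (0.764) and Cdr2 (0.757), with an r with the red blood cell score of 0.635 that was 0.032 without the 2 farthest arrays. Of 6 listed red blood cell markers 2 were measured, and the part of those cells in the level of Nr4a3 was not tested.

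Of the 83 listed genes of the pathway 4 were called in the sedentary line difference, on the probe set of highest mean, against 4.99% of all probe sets. The units differ, since each listed gene has 1 probe set here. In a separate fit with 1 probe set per gene, 1254 of 14217 genes were called. Of 8 AP-1 genes, 17 measured upstream genes such as Srf and Creb1, and 10 other Klf genes, only Klf15 was called, a glucocorticoid-induced factor of cardiac metabolism, on its probe set of highest mean. It was lower in HCR than in LCR sedentary rats, at -0.58 ± 0.12 (limma adjusted p = 0.0261), as was the dimmer 1381396_s_at, at -0.47 ± 0.12 (0.0404). Among 27 other immediate early genes Ier3 was lower in that comparison, at -0.41 ± 0.11 (limma adjusted p = 0.0422) and Id1, a target of bone morphogenetic proteins, was higher by 0.26 ± 0.06 (0.0381). Of 12 targets Pdgfa was lower, at -0.43 ± 0.09 (limma adjusted p = 0.0244), and of 9 feedback inhibitors Spry1 was higher in HCR over both training states, by 0.23 ± 0.06 (0.0464), as was Id1 (0.17 ± 0.05, 0.0485).

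Dimmer probe sets of listed genes were called too. In sedentary rats Fos on 1371283_at was higher in HCR by 0.24 ± 0.06 (limma adjusted p = 0.0463), while Fos on 1375043_at was not called. Trib1 on 1392848_at was higher by 0.29 ± 0.07 (limma adjusted p = 0.0308) and Klf11 on 1397266_at lower, at -0.66 ± 0.16 (0.0343). Of the 8 listed probe sets called in sedentary rats, none was called by limma without HCR sedentary rat 5, without LCR sedentary rat 6 or with the interquartile range as covariate, and 2, those of Id1 and Klf11, with quantile normalization. The fit with that covariate cannot tell line from array spread in sedentary rats. Without HCR sedentary rat 5 Klf15 stood at -0.53 (limma adjusted p = 0.0803), Pdgfa at -0.41 (0.0743), Ier3 at -0.38 (0.12) and Id1 at 0.25 (0.106). One of the 8 was called without HCR sedentary rat 4, HCR sedentary rat 6 or LCR sedentary rat 5, and 2 without LCR sedentary rat 3. The calls of Spry1 and Id1 over both states were also lost without HCR sedentary rat 5 (limma adjusted p of 0.0601 and 0.0938), and likewise without rat 3, 4 or 6 of that group. Both were lost without HCR trained rat 4, 5 or 6, LCR sedentary rat 3, 5 or 6, or LCR trained rat 2 or 3. They were lost with centred arrays, with the rat number as a block and with the covariate as well. Nab2, a corepressor of Egr factors, differed with training by -0.10 ± 0.06 in HCR and 0.00096 ± 0.06 in LCR, Egr4 by -0.02 ± 0.07 and 0.09 ± 0.07, and Jun by -0.15 ± 0.17 and -0.03 ± 0.17 (limma adjusted p from 0.452 to 0.998).

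By direction, 7 of 8 AP-1 genes and 21 of 27 other immediate early genes had a lower mean in trained than in sedentary HCR rats, with medians of -0.13 and -0.13. In LCR these counts were 5 of 8 and 21 of 27, with medians of -0.10 and -0.05. Over all 14217 genes 48.1% were lower with training in HCR and 52% in LCR, with medians of 0.0059 and -0.0045. None of these genes was called for training in either line.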

How the data were processed

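The deposited values are log2 expression levels per probe set, summarised by the authors with robust multi-array averaging (RMA), per the submitters' processing notes. Those notes list RMA and limma with no version. No source used here states the log base. The values run from 3.24 to 14.54 and were taken as log2, so folds rest on that reading. Of 31099 rows 57 control probe sets were left out. The platform annotation gave 1 symbol to 20826 probe sets, several to 436 and none to 9780. Lists used 1 probe set per gene, that of highest mean.

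All 31042 probe sets were fitted with limma 3.58.1 in R 4.3.3, with 4 group means, 12 residual degrees of freedom, 7 contrasts and Benjamini-Hochberg adjustment within each. Line differences are HCR minus LCR, training differences trained minus sedentary, and the interaction is the HCR minus the LCR training difference. Correlations used Python 3.11.15 and numpy 2.4.6, with two-sided permutation tests of 100000 resamples adjusted within each family. With group means out, residuals were permuted within the groups. On simulated data for training in HCR, over 31042 probe sets, 96% of 100 changes of 2-fold and 89% of 100 of 1.5-fold were recovered, and 11 of 196 calls were false. The changes were planted in probe sets drawn at random, with independent noise at each one's residual standard deviation (median 0.11 over all probe sets). Recovery was not measured for members of wide spread, such as Egr1 (0.65), Nr4a1 (0.54), Klf10 (0.47) and Nr4a2 (0.38), and cannot be read as theirs.

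The members and gene lists were chosen with earlier results of these data known. Every member probe set is reported. Listed genes are named where called, up to 3 per pathway list and comparison, with Fos, Jun, Nab2 and Egr4 always, as are the 3 genes most like each member. Alternatives changed scaling, filter, probe sets per gene, prior, array weights, arrays in the fit, covariate and block, and left out each array.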

Additional observations from a re-analysis of the deposited data

Results flagged for a closer look

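Among the 80 groups of 4 arrays formed by the 20 member probe sets, 3 held an array whose gap to its nearest neighbour exceeded the 95% critical value of Dixon's test, where 4 would be expected at 1 in 20. Nr4a2 on 1387410_at was highest in HCR trained rat 3, at 5.608 against 5.357 in the next rat. Klf2 on 1394068_x_at was lowest in the same rat, at 6.764 against 6.821. Klf2 on 1386041_a_at was lowest in HCR sedentary rat 4, at 7.295 against 7.839 in the next.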

How the results depend on the processing

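The member counts stayed at 0 under the alternatives run for training in either line, training over both lines, the interaction and the line difference in trained rats, and leaving out single arrays gave 0 to 0 there. For the line difference in sedentary rats the count was 1, Egr3, with 1 probe set per gene (limma adjusted p = 0.0492), with array weights (0.0229) and with the rat number as a block (0.0315), and 0 to 1 leaving out single arrays. Egr3 was called there without HCR sedentary rat 3 (0.0382), LCR trained rat 2 (0.0422) or LCR trained rat 4 (0.0489). Over all probe sets 1891, 1994 and 1936 were called in these fits, against 1549 with all arrays. For line over both training states the range was 0 to 1, Egr3 being called without LCR trained rat 2 (0.0466). Whether the rat numbers pair the arrays was not tested. The 16 same-numbered pairs across groups had a mean correlation of deviations of 0.0574, from -0.231 to 0.339, with 6 above 0.1. The 80 differently numbered pairs had a mean of -0.0116, from -0.409 to 0.459, with 19 above 0.1. With the block 4 gene pairs passed, as without it. Reversals, counted where the reported difference was called or at least as large as its standard error, arose only with the interquartile range of the array as a covariate. In sedentary rats the line difference was then -0.011 for Egr2 on 1398266_a_at, -0.030 for Egr2 on 1387306_a_at and -0.087 for Klf2 on 1386040_at. The interaction was 0.040 for Klf2 on 1386040_at, and line over both training states gave -0.021 for Egr2 on 1398266_a_at and 0.038 for Klf6 on 1387060_at. The interquartile ranges of the sedentary arrays did not overlap between the lines, so the covariate fit cannot tell line from array spread there. In all 211 alternative differences changed sign and 3110 did not. Gene pairs that passed numbered 9 with quantile normalization, 1 with group means and interquartile range out, and 4 to 9 leaving out single arrays, with 9 without HCR sedentary rat 3. Pairs with array spread and marker scores numbered 0 with quantile normalization, which leaves no array spread to test, 0 with group means out, and 2 to 5 leaving out single arrays. Over all probe sets, calls in the sedentary line difference went from 1549 to 2460 with median centring (298 higher and 2162 lower, against 623 and 926), 543 with quantile normalization, 4183 with array weights, 3000 with the block, 2 with the covariate, 112 without HCR sedentary rat 5, 103 without HCR sedentary rat 4 and 35 without LCR sedentary rat 6. The listed-gene alternatives were added after seeing the data. For line over both states, calls over all probe sets went from 1191 to 1779 by centring, with 283 higher and 1496 lower against 450 and 741. These calls went to 723 with quantile normalization, to 46 with the covariate, to 520 without HCR sedentary rat 4 and to 2575 without LCR trained rat 2. For line in trained rats they went from 30 to 11 with 1 probe set per gene, 12 without LCR trained rat 1 and 53 without LCR trained rat 2, for training over both lines from 2 to 5 with quantile normalization and 11 without LCR trained rat 2, and for training in HCR from 0 to 27 with array weights, 8 with the block and 39 without HCR trained rat 6. The cause was not tested.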
